A study of Homo sapiens with 9 samples.

Results

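The histone genes of uCaco-2, undifferentiated cells of the human colon adenocarcinoma line Caco-2, were taken by their symbols in the count table. The members were every H1 gene with a numbered symbol, every gene named H2AC, H2BC, H3C or H4C with a number, the variants H2AZ1, H2AZ2, H2AX, H2AJ, H3-3A, H3-3B and MACROH2A1, and the regulators SLBP and NPAT. They came to 79 of the 60591 genes listed, with 66 clustered histone genes, 11 variant histone genes and 2 regulators. H1 genes that stand outside the histone gene clusters, such as H1-7, H1-8 and H1-10, were placed with the variants. The cells were kept for 24 h in medium with 300 μM CoCl2, in medium with 5 μM OD, or in fresh medium (control), and 0.5% DMSO was present in all 3 conditions. CoCl2 and the oxyquinoline derivative OD are chemical activators of hypoxia-inducible factor (HIF) signaling. Each condition had 3 biological replicates, and the 9 libraries were made from poly(A)-selected RNA and read as single-end 75-base reads. Caco-2 is 1 cell line, so the replicates do not sample other lines or donors.

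Clustered, or replication-dependent, histone genes lie mainly in gene clusters on chromosomes 6 and 1 and supply the core histones H2A, H2B, H3 and H4 and the linker histone H1 for new chromatin while DNA is copied. Their mRNAs have no introns and normally end in a short stem-loop in place of a poly(A) tail. SLBP binds that stem-loop, and NPAT, a coactivator that cyclin E and CDK2 phosphorylate, drives transcription of the clusters. Variant histone genes stand alone, mostly give polyadenylated mRNA and are also made outside S phase.

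The stem-loop is the end that most clustered histone mRNAs share, and those of the genes on which the results turn are printed here, read from GRCh38 on the gene's strand. The 16 bases of the stem-loop are in capitals, and 7 bases on either side are in lower case.
H2BC12: ccccaaaGGCTCTTTTAAGAGCCacttaaa
H4C9: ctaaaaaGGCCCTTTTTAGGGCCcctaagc
H2BC8: actcaaaGGCTCTTTTCAGAGCCactcaag
H1-2: cccaaaaGGCTCTTTTCAGAGCCaccactg
H1-6: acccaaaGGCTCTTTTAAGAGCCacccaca
H2AX: ccacaaaGGCCCTTTTAAGGGCCaccaccg
They stand on chromosome 6 at 27146359-27146388 (H2BC12, minus strand), 27139647-27139676 (H4C9, plus strand), 26216211-26216240 (H2BC8, minus strand), 26055737-26055766 (H1-2, minus strand) and 26107410-26107439 (H1-6, minus strand), and on chromosome 11 at 119094891-119094920 (H2AX, minus strand). The stem-loops lie in the exon after the stop codon, in the 3' untranslated end, and some of the flanking bases run past the annotated end of the gene. The histone stem-loop was searched by its fixed stem and loop bases, with the free stem bases required to pair, on the strand of the gene within 150 bases after a stop codon. It was found for 66 of the 66 clustered genes and 1 of the 11 variants, H2AX, and for neither SLBP nor NPAT. Among 19950 protein-coding genes it was found for 72, or 0.361%. The other 5 of these 72 were H3-4 and H3-7, whose symbols the rule does not cover, and H2AC25, H2BC26 and H4C16, which the count table lists under the older symbols H2AW, H2BU1 and H4-16 and which were therefore not taken as members. The stem-loop began 23 to 68 bases after the stop codon (median 36) and took 11 forms, of which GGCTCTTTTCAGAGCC was the commonest, in 38 genes.

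Total counts were 15998136 to 18298190 per library in control cells, 16286502 to 24209427 with CoCl2 and 16387054 to 19623776 with OD. Levels are given in CPM, counts made comparable between libraries by TMM factors, which correct for composition and were 1.11 to 1.12 in control cells, 0.770 to 0.795 with CoCl2 and 1.14 to 1.15 with OD. Scaling by library size alone moved the median log2 fold change of all tested genes with CoCl2 to -0.55, from -0.05, and changes below are relative to the TMM scale unless stated. Of 12 intestinal epithelial markers 11 were tested, with 1 called higher and 2 lower with CoCl2 and 1 higher with OD. Of 12 markers of other cell types 6 were tested, with 1 called higher by each treatment. The background over all tested genes was 19.9% for higher calls and 23.4% for lower calls under CoCl2. Under OD it was 9.09% for higher calls. With so few markers, these calls are not read as particular to either list. KRT8 and EPCAM were abundant in all conditions (4983 and 752 CPM in control cells), CDX1 had no count, and VIL1, the microvillus protein villin, fell from 613 to 112 CPM with CoCl2. VIL1 does not describe the epithelial list as a whole. With CoCl2, 8 of its 11 tested markers had positive and 3 negative log2 fold changes, with a median of 0.28 (range -2.45 to 1.66). Both calls among the markers of other cell types were of low genes, VWF with CoCl2 (0.373 to 1.16 CPM) and LUM with OD (0.331 to 1.15 CPM). Of that list LYZ (35.9, 51.5 and 34.6 CPM in control, CoCl2 and OD), COL1A1 (14.4, 10.2 and 21.7 CPM), COL3A1 (5.14, 8.35 and 3.89 CPM) and PECAM1 (2.35, 1.37 and 2.29 CPM) were present, while PTPRC, COL1A2 and DCN stayed at or under 0.116 CPM on average. The part of other cells in the results was not tested.

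In these libraries the clustered histone genes were scarce beside the variants. The 66 clustered genes together held 242 to 4746 counts per library, and 8 of them, with the variants H1-7 and H1-8, had no count in any library. Of the 66 genes, 24 passed edgeR's expression filter and were tested, and 13 of these passed on the control libraries alone. Another 11 passed only with the CoCl2 libraries counted in, so their selection favors a higher level with CoCl2. Among the variants 9 were tested, and both regulators were. Genes with at most 3 counts in each control library made up 39 of the 66.

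CoCl2 raised the clustered histone mRNAs as a class and OD lowered them. Their summed level was 41.7, 40.8 and 45.2 CPM in the control libraries, 285, 271 and 249 CPM with CoCl2 and 11, 11.2 and 13.3 CPM with OD. The libraries of the 3 conditions did not overlap. The mean was 6.30-fold higher with CoCl2, at 268 ± 18.4 CPM against 42.6 ± 2.32 CPM (SD, n = 3), and 3.60-fold lower with OD, at 11.8 ± 1.28 CPM. With library size as the only scaling these ratios were 4.44 and 3.50. CoCl2 and OD libraries differed 22.7-fold, or 15.5-fold by library size. The RNA is from whole cultures, so a change in the number of cells making histone mRNA and a change per cell cannot be told apart. Since libraries were poly(A)-selected, more histone mRNA and more polyadenylated histone mRNA cannot be told apart either.

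The variants moved far less as a sum. Their summed level was 1685, 1676 and 1654 CPM in control cells, 1911, 1944 and 1826 CPM with CoCl2 and 1053, 1046 and 1027 CPM with OD. CoCl2 libraries lay above and OD libraries below the control libraries, with ratios of 1.13 and 0.623, but library size alone turned the ratio with CoCl2 to 0.798. The sum joins changes of both signs, with 4 positive and 5 negative log2 fold changes with CoCl2 among the 9 tested variants. Its small change therefore does not mean that each variant was stable. Clustered genes made up 2.38% to 2.66% of all histone counts in control cells, 12% to 13% with CoCl2 and 1.03% to 1.28% with OD. These shares are taken within a library, so no scaling factor touches them.

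**Figure D1:**
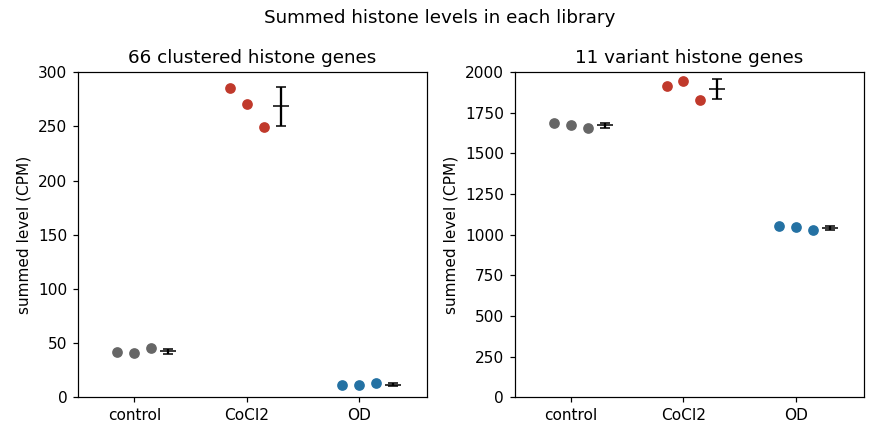
Summed level in CPM (vertical axis, from 0) of the 66 clustered histone genes (left) and the 11 variant histone genes (right) in each library by condition; points are libraries, and the bar beside them is the mean ± SD of 3. Clustered genes stood at 249 to 285 CPM with CoCl2 against 40.8 to 45.2 CPM in control cells and 11 to 13.3 CPM with OD, while variants stood between 1027 and 1944 CPM throughout.

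Gene by gene, calls came from edgeR's quasi-likelihood test over the 9 libraries, and needed a log2 fold change beyond 1 or -1 with a Benjamini-Hochberg adjusted p under 0.05. With CoCl2, 24 of the 24 tested clustered genes were called higher and 0 lower, where 19.9% of all 15944 tested genes were called higher. At an unadjusted p under 0.05, and by DESeq2, 0 were lower as well. Their median log2 fold change was 2.64 (range 1.31 to 8.73), against -0.05 over all tested genes. Libraries did not overlap for 23 of the 24, where 40.5% of all tested genes were higher in that way, and H4C5, which encodes histone H4, was the exception. Of the 24, 11 passed the count filter only through their CoCl2 libraries, so that they had to be higher there. The 13 that passed on control libraries alone were all called, with a median of 2.56. These 13 stood between 0.5 and 10 CPM in control cells, where 16.9% of 5675 tested genes were called higher. Below 0.5 CPM, where no clustered gene passed on control libraries alone, 60.7% of 1291 tested genes were called higher. Over all 66 genes, tested or not, the pooled level was higher with CoCl2 for 54 and lower for 3, and 9 had no count in either condition. The 42 clustered genes that were not tested had a summed level of 1.98 ± 0.107 CPM in control cells and 7.38 ± 1.04 CPM with CoCl2.

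With OD, 17 of the 24 were called lower and 0 higher, where 4.16% of all tested genes were called lower. At an unadjusted p under 0.05, and by DESeq2, 0 were higher as well. Their median was -2.0, against -0.01 over all tested genes, and 23 of the 24 had a negative log2 fold change. The exception, H1-6, had no count in either condition. Libraries did not overlap for 19 of the 24, where 34.3% of all tested genes were lower in that way. Of the 13 genes that passed on control libraries alone, 11 were called. The background by control level ran the other way here. Below 0.5 CPM 1.32% of tested genes were called lower, with 5 of 10 clustered genes, and from 0.5 to below 10 CPM 7.12% were, with 12 of 14. At these counts 5 calls rested on single libraries. H2BC4 lost its call without control replicate 3 (-1.02) or OD replicate 3 (-1.04). H2BC6 lost it without control replicate 1 (-1.83), OD replicate 1 (-1.73) or OD replicate 3 (-1.82), and H2BC9 without control replicate 2 (-0.97) or OD replicate 1 (-1.0). H2BC15 lost it without control replicate 2 (-1.0), control replicate 3 (-1.25) or OD replicate 2 (-0.98), and H3C2 without control replicate 2 (-3.19). The other 12 genes lost it under no omission in which they were tested. Without CoCl2 replicate 1 or CoCl2 replicate 3, H2BC6 and H4C5 did not pass the count filter and were not tested.

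The comparisons with CoCl2 and with OD share the control libraries. In the direct comparison, all 24 tested clustered genes were called higher with CoCl2 than with OD, where 17.5% of all tested genes were, with a median of 4.77 (range 3.29 to 8.73). None of them overlapped between libraries, where 40.3% of all tested genes were higher in that way. Of the 24, 11 passed the count filter only through their CoCl2 libraries, so their selection favors a higher level with CoCl2 here too. The 13 that passed on control libraries alone were all called, with a median of 4.61. With genes that had no count in 1 condition set at their bound, the medians were 2.64 with CoCl2, -1.99 with OD over 23 genes and 4.63 between CoCl2 and OD. By each call, 17 genes were higher with CoCl2 and lower with OD, and 7 were higher with CoCl2 and not called with OD (H2BC18, H2BC21, H1-6, H3C6, H4C8, H3C12 and H2BC17). These counts are over the same 24 genes, and the shares of all tested genes with such pairs of calls were not computed.

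**Figure D2:**
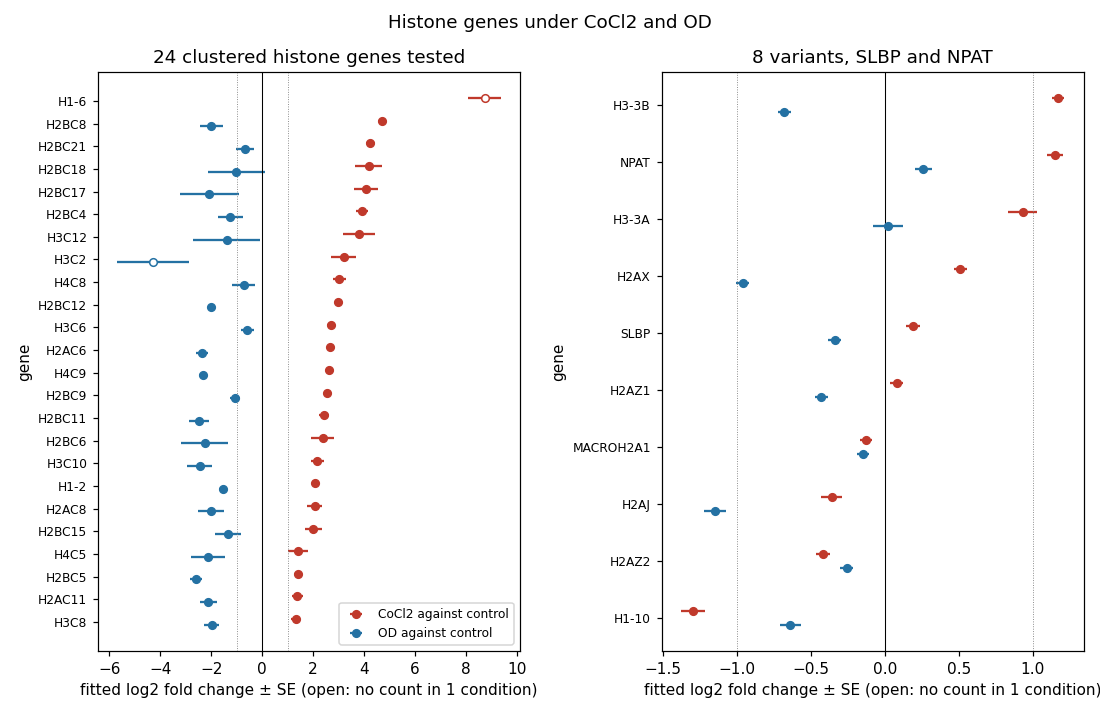
Fitted log2 fold change with its SE (horizontal axis) for each tested clustered gene (left) and 8 variants with SLBP and NPAT (right), with CoCl2 in red and OD in blue, both against the same control libraries; dotted lines mark 1 and -1, open points have no count in 1 condition, and H1-6 has no OD point because it had no count in control or OD libraries. Red points of the clustered genes lie between 1.31 and 8.73 and blue points at or below -0.58, while the variants drawn spread from -1.30 to 1.17.

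Genes for histone H2B, the partner of H2A in the nucleosome, led the class. H2BC12 was the most abundant, and its level was 7.59, 8.82 and 7.91 CPM in control cells, 67.1, 63.1 and 60.4 CPM with CoCl2 and 1.91, 2.04 and 2.13 CPM with OD. Every CoCl2 library lay above and every OD library below the control libraries. With CoCl2 the log2 fold change was 2.96 ± 0.0766 (SE; edgeR adjusted p = 5.86e-43), and with OD it was -2.0 ± 0.136 (edgeR adjusted p = 1.42e-20). Of its 75-base windows 61.0% occurred nowhere else in the genome, so part of its reads could fit other genes and its level is uncertain.

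The largest rise of a gene with counts in every library was that of H2BC8, which also encodes an H2B. It had 11, 11 and 22 counts in control cells, 375, 255 and 354 with CoCl2 and 3, 7 and 2 with OD. Neither treatment overlapped the control libraries, and H2BC8 rose by 4.71 ± 0.165 on the log2 scale with CoCl2 (edgeR adjusted p = 1.5e-34) and changed by -1.99 ± 0.449 with OD (edgeR adjusted p = 9.77e-05). H2BC21 and H2BC18, H2B genes of the chromosome 1 cluster, rose by 4.25 ± 0.171 and 4.18 ± 0.523 with CoCl2. With OD they had log2 fold changes of -0.68 and -1.01, with adjusted p of 0.0782 and 0.444 by edgeR, and the H2BC18 libraries overlapped the control libraries. H2BC18 had 2 counts with OD in all, a pooled ratio to control of 0.449 with a counting interval of 0.0406 to 3.13. H2BC17 rose by 4.08 with CoCl2 and had 1 count with OD, a pooled ratio of 0.179 with an interval of 0.00379 to 1.60 (edgeR adjusted p = 0.114). Only 39.2% of the windows of H2BC18 were found nowhere else.

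H2BC5 showed the largest fall with OD among genes with a count in every library. Its level was 3.17, 3.53 and 3.98 CPM in control cells, 10.6, 9.29 and 8.29 CPM with CoCl2 and 0.545, 0.355 and 0.905 CPM with OD. The 3 conditions stood apart, with log2 fold changes of 1.39 ± 0.138 and -2.59 ± 0.234. With library size alone the value with CoCl2 was 0.89, under the threshold. H2BC11 had 2.44 and -2.48, and H2BC9 had 2.56 and -1.05, so that H2B genes rose and fell in different proportions. As a family, the 17 H2B genes summed to 18.7 ± 1.36, 145 ± 12.1 and 5.35 ± 0.674 CPM in control, CoCl2 and OD libraries, 7.72-fold higher with CoCl2 and 3.50-fold lower with OD than in control cells.

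Histone H4 was carried mainly by H4C9. Its level was 7.32, 6.23 and 7.91 CPM in control cells, 46.5, 47.7 and 38.4 CPM with CoCl2 and 1.23, 1.38 and 1.65 CPM with OD, again without overlap. H4C9 changed by 2.63 ± 0.0900 on the log2 scale with CoCl2 and by -2.33 ± 0.164 with OD. Summed H4 levels were 5.99-fold higher with CoCl2 and 4.58-fold lower with OD. The 16 clustered H2A genes were 4.77-fold higher and 4.89-fold lower, led by H2AC6, whose level was 2.74, 3.14 and 2.69 CPM in control cells, 15.9, 19.3 and 19 CPM with CoCl2 and 0.817, 0.311 and 0.532 CPM with OD. Its log2 fold changes were 2.65 ± 0.124 and -2.36 ± 0.247.

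Clustered H3 genes, which encode the histone whose tail carries many of the known marks, were 4.75-fold higher with CoCl2 and 2.6-fold lower with OD as a sum. Among them H3C10 had log2 fold changes of 2.16 and -2.45. H3C2 had 2, 5 and 0 counts in control cells, 23, 12 and 22 with CoCl2 and none with OD. It rose by 3.20 ± 0.484 with CoCl2, and was at least 2.6-fold lower with OD than in control cells against a floor of 3 counts over the condition, while its control and OD libraries overlapped at 0. H3C12 was called higher with CoCl2 (log2 fold change 3.81), but had 3 counts in the control libraries together, all in replicate 3. The ratio of its pooled levels was 15.8, with an exact 95% counting interval of 5.02 to 79.6. With OD it had -1.40 (edgeR adjusted p = 0.361), which turned to 1.76 without control replicate 3. Its annotated exons overlap those of H2AC17 on the same strand.

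Linker histones bind the DNA between nucleosomes. H1-2, the main clustered linker histone here, stood at 6.03, 4.46 and 6.23 CPM in control cells, 26.4, 22.4 and 22.0 CPM with CoCl2 and 2.04, 1.55 and 2.13 CPM with OD. It rose by 2.09 ± 0.105 with CoCl2 and fell by 1.54 with OD, with no overlap. H1-6, known as the testis-specific linker histone, had no count in control or OD libraries and 45, 37 and 54 counts with CoCl2. That was at least 53.6-fold higher than control and at least 59.7-fold higher than OD, against a floor of 3 counts over the condition. All of its 75-base windows were its own. H1-6 lies inside the annotated span of H2BC4 on the same strand, though not in its exons, and H2BC4 rose by 3.92 with CoCl2. Whether H2BC4 transcripts add to the reads of H1-6 was not tested.

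Of the linker histones outside the clusters, H1-10 went from 30.5, 31.0 and 29.4 CPM to 11.6, 11.8 and 13.4 CPM with CoCl2 and to 18.9, 21.1 and 18.3 CPM with OD. It was called with CoCl2 at -1.30 and had -0.64 with OD, below the threshold on size although its libraries did not overlap. Of its annotated exons 22.8% overlap an antisense gene.

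The replacement histone H3.3, placed into chromatin outside replication, is encoded by H3-3A and H3-3B. H3-3B stood at 436, 456 and 443 CPM in control cells, 1004, 1061 and 943 CPM with CoCl2 and 269, 294 and 269 CPM with OD, without overlap. It rose by 1.17 ± 0.0418 with CoCl2 (edgeR adjusted p = 2.47e-35) and had -0.68 ± 0.0424 with OD, and was the only variant called higher with CoCl2, where 2 were called lower. By library size alone its value with CoCl2 was 0.67. H3-3A, at 7.59 to 8.19 CPM in control cells and 14.4 to 15.9 CPM with CoCl2, had 0.93 ± 0.0966 with CoCl2 and 0.02 ± 0.103 with OD, where its libraries overlapped. It is known to have processed copies, and 79.4% of its windows were its own.

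H2AX, the variant phosphorylated at DNA breaks and the one variant here with a stem-loop, was also highest with CoCl2 and lowest with OD, with smaller differences than most clustered genes. Its level was 177, 178 and 186 CPM in control cells, 268, 254 and 248 CPM with CoCl2 and 95.5, 90.1 and 92.3 CPM with OD. The conditions did not overlap, with log2 fold changes of 0.51 ± 0.0422 and -0.96 ± 0.0441 that stayed under the threshold on size, and it was called between CoCl2 and OD at 1.47 ± 0.0440. By library size alone that last value was 0.92. Its share of H2A counts was 21.7% to 23.0%, 29.3% to 30.8% and 15.3% to 15.7% in control, CoCl2 and OD libraries.

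The other H2A variants moved little with CoCl2. H2AJ, a vertebrate variant linked to senescence, went from 27.3 to 28.6 CPM in control cells to 21.0 to 22.8 CPM with CoCl2 and 11.5 to 13.4 CPM with OD, and was called with OD at -1.15 ± 0.0753. H2AZ1 and H2AZ2 encode forms of H2A.Z, found around transcription starts. With CoCl2 H2AZ1 had 0.08 ± 0.0440 (edgeR adjusted p = 0.0900), which turned to -0.02 with upper-quartile factors and to -0.43 by library size alone, and H2AZ2 had -0.42 ± 0.0456. With OD they had -0.43 and -0.26. H2AZ2 made up 39.1% to 40.1% of H2A.Z counts in control cells, 30.8% to 33.4% with CoCl2 and 41.5% to 43.9% with OD. MACROH2A1, which carries a large extra domain, had -0.13 and -0.15.

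In all, 1 of 9 tested variants was called higher and 2 lower with CoCl2, against 19.9% and 23.4% of all tested genes, and 0 higher and 2 lower with OD, against 9.09% and 4.16%. On the log2 scale their median change was -0.13 with CoCl2 and -0.64 with OD. Between CoCl2 and OD 2 were higher (H2AX and H3-3B) and 1 was lower, against 17.5% and 23.8%, with a median of 0.51 that turned to -0.03 by library size alone. At an adjusted p under 0.05 without the threshold on size, 8 of 9 variants differed with CoCl2 and 8 with OD. The share of all tested genes at that threshold was not computed. Most tested genes had libraries that did not overlap, 6456 higher and 6839 lower of 15944 with CoCl2. With OD these were 5366 and 5471, so 8 of 9 is not read as particular to the variants. For higher levels with OD, edgeR's unadjusted p was under 0.05 for 0 of the 9, and DESeq2 called 0.

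**Figure D3:**
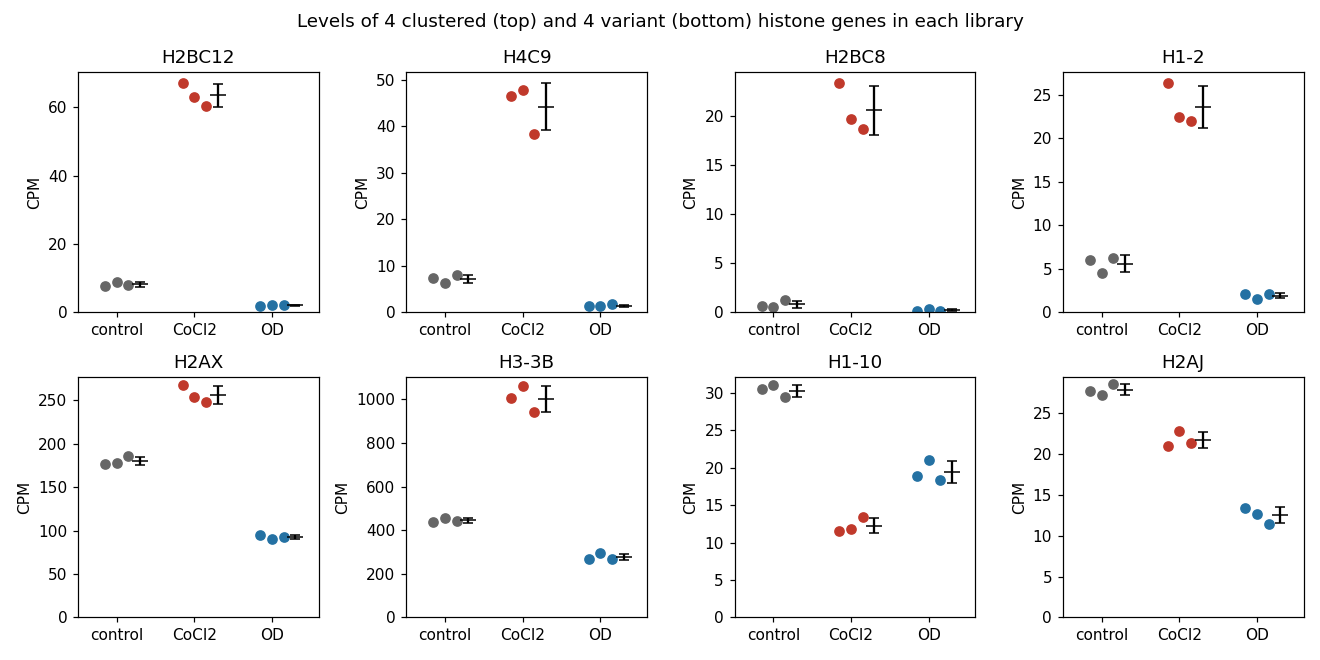
Level in CPM (vertical axes, each from 0) of 4 clustered genes (top) and 4 variants (bottom) by condition; points are libraries, and the bar beside them is the mean ± SD of 3. H2BC12, H4C9, H2BC8, H1-2, H2AX and H3-3B were highest with CoCl2 and lowest with OD, while H1-10 was lowest with CoCl2 and H2AJ with OD.

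Per kilobase of annotated exon, the most abundant clustered genes came near the most abundant variants with CoCl2. In control cells H2AX stood at 113, H2AZ1 at 90.7 and H3-3B at 72.5 CPM per kb, against 18.0 for H4C9 and 16.4 for H2BC12. With CoCl2 the order was H3-3B at 163, H2AX at 161, H2BC12 at 128, H4C9 at 111 and H2AZ1 at 95.9 CPM per kb. Exon lengths come from a later annotation release than the counts, and reach far past the stem-loop for some genes. They join the exons of all annotated transcripts, so H3-3B, with 13 transcripts, was divided by 6134 bases. H2BC12 and H4C9, with 1 transcript each, were divided by 495 and 397 bases, so the order depends on these lengths.

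The regulators had smaller log2 fold changes with CoCl2 than every tested clustered gene. SLBP stood at 116, 118 and 120 CPM in control cells, 141, 134 and 129 CPM with CoCl2 and 93.9, 90.7 and 95.8 CPM with OD, without overlap. Its log2 fold changes were 0.19 ± 0.0456 and -0.34 ± 0.0459, and the former turned to -0.32 by library size alone. NPAT stood at 48.1, 53.7 and 52.6 CPM, 114, 119 and 110 CPM and 57.8, 64.3 and 62.8 CPM, and was called higher with CoCl2 at 1.15 ± 0.0530. By library size alone this value was 0.65. With OD it had 0.26 ± 0.0544, higher in every library.

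Among genes of histone gene transcription and S-phase entry, CoCl2 gave 3 higher and 3 lower calls of 13 tested, with a median of -0.23, near the 19.9% and 23.4% of all tested genes. OD gave 0 calls by edgeR and by DESeq2, with 5 higher and 6 lower at an unadjusted p under 0.05. HINFP, the factor that binds H4 promoters, rose by 1.43 ± 0.0553 and YY1 by 1.18 ± 0.0428, while E2F1, a driver of S-phase genes, fell by 1.68 and CCNA2, cyclin A, by 1.46. Of 33 genes of S-phase DNA replication, 12 were called lower and 2 higher with CoCl2, against 23.4% and 19.9% of all tested genes, and 19 were not called. Their median was -0.59, with 9 positive values. TYMS, thymidylate synthase, had -2.05 ± 0.0695, and ORC6 and ORC1 of the origin recognition complex had 1.42 and 1.31. With OD 0 of the 33 were called by edgeR or by DESeq2, with a median of -0.21, and 7 were higher and 19 lower at an unadjusted p under 0.05. For both lists the share of all tested genes at that unadjusted p was not computed. Libraries did not overlap with OD for 5366 of 15944 tested genes that were higher and 5471 that were lower.

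Of 26 genes that process or degrade histone mRNA, 5 were higher and 5 lower with CoCl2, with a median of 0.00. These counts were near the shares of all tested genes, 19.9% and 23.4%. Among its members ZNF473, a zinc finger protein of the histone pre-mRNA processing machinery, had the largest rise, 2.46 ± 0.0524, from 35.6 to 195 CPM. TUT7, a terminal uridylyltransferase, rose by 1.89, while the cleavage factor subunit CPSF2 fell by 1.69 and NELFE, of the negative elongation factor, by 1.43. With OD 0 of the 26 were called by edgeR or by DESeq2, with a median of -0.31, and 2 were higher and 19 lower at an unadjusted p under 0.05. The share of all tested genes at that unadjusted p was not computed, so these counts are not set against a background. Of 29 histone chaperones and remodelers, 8 were higher with CoCl2, led by INO80 at 2.18 and SUPT6H at 1.75, and 3 were lower, led by IPO4, an importin for histones, at -2.80 and ASF1B at -1.61, again against 19.9% and 23.4%. OD gave 1 call of the 29, IPO4 lower at -1.25, near the 4.16% of all tested genes called lower. The mitosis markers had 1 lower call of 10 with CoCl2, TOP2A at -2.13, against 23.4% of all tested genes. With OD 4 of the 10 were lower, led by PLK1 at -1.80 and CCNB1 at -1.60, against 4.16%. MKI67 had 0.45 with CoCl2 and -0.49 with OD.

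Histone genes with other symbols in the count table gave 2 higher calls of 6 tested with CoCl2, H3-5 at 2.40 and MACROH2A2 at 1.25, and 1 lower, CENPA, the centromeric H3, at -1.92, against 19.9% and 23.4% of all tested genes. The older symbols H2AW, H2BU1 and H4-16, which stand for genes with a stem-loop, were not called with CoCl2, unlike the tested clustered genes. H2AW had 0.77 ± 0.130 (edgeR adjusted p = 2.49e-07), H2BU1 had 0.24 ± 0.410 (edgeR adjusted p = 0.584) and H4-16 had 0.19 ± 0.293 (edgeR adjusted p = 0.551). With OD 3 of the 6 were lower, CENPA at -1.64, H2BU1 at -1.60 and H4-16 at -1.14, against 4.16% of all tested genes, and H2AW had -0.90. Counted with the clustered genes, these 3 would make 24 of 27 called higher with CoCl2 and 19 of 27 called lower with OD.

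Other RNAs that poly(A) selection should take up poorly were summed beside the histone genes, a choice made after the values were seen. Small nucleolar and Cajal body RNA genes (453 symbols) stood at 36.4 ± 1.63 CPM in control cells, 93.0 ± 4.38 CPM with CoCl2 and 29.2 ± 2.03 CPM with OD. Symbols of spliceosomal RNAs and their copies went from 7.25 ± 0.576 to 16.4 ± 0.424 and 6.67 ± 0.744 CPM, and microRNA genes, which share reads with host genes, from 141 ± 1.89 to 537 ± 19.7 and 149 ± 4.30 CPM. These sets were 2.55-fold, 2.26-fold and 3.81-fold higher with CoCl2, and with OD their ratios were 0.802, 0.919 and 1.06. Histone pseudogene symbols were 2.07-fold higher with CoCl2 and had a ratio of 0.894 with OD. Their part in the rise of clustered histone counts was not tested.

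How far a gene is annotated past its stem-loop varied. Of the 14 clustered genes annotated more than 100 bases past it, 11 were tested and the median total was 206 counts over the 9 libraries, and of the other 52, 13 were tested and the median was 13. H2BC12, H4C9, H2BC8, H1-2 and H1-6 belong to the latter, with 5, 9, 18, 4 and 5 annotated bases after it, and H2BC21, H2BC18, H2AC6 and H2BC5 to the former. So both kinds rose with CoCl2. The 6 clustered genes with no 75-base window of their own (H4C14, H3C14, H2AC18, H2AC19, H3C15 and H4C15) had at most 3 counts in all.

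Genes lying among the clustered histone genes were read as well. Between the first and last clustered genes on chromosome 6, at 25723397 to 27893891 on GRCh38, 18 other genes were tested, of which 3 were higher and 3 lower with CoCl2 (median -0.11), against 19.9% and 23.4% of all tested genes, and 2 were higher with OD (median 0.25), against 9.09%. The 55 clustered histone genes on chromosome 6 were 6.11-fold higher with CoCl2 as a sum and the 11 on chromosome 1 were 12.5-fold higher, and they were 3.65-fold and 2.48-fold lower with OD. On chromosome 1 most counts were of H2BC21, with 42, 681 and 29 in control, CoCl2 and OD libraries. H2AC20 had 19, 20 and 2, and 5 of the 11 genes had no count in any library. The chromosome 1 ratios therefore do not describe that cluster as a whole. H2A and H2B genes often sit back to back, and 11 such pairs had starts 170 to 251 bases apart. Of these 3 had both genes tested, and the H2B gene rose more with CoCl2 in each. H2BC4 and H2AC8 passed the count filter only through their CoCl2 libraries, so that selection bears on their pairs. H2AC6 and H2BC4 had 2.65 and 3.92, H2AC8 and H2BC8 had 2.06 and 4.71, and H2AC11 and H2BC11 had 1.37 and 2.44. With OD the same pairs had -2.36 and -1.25, -2.01 and -1.99, and -2.11 and -2.48, with no common order. Pairs in which a gene was not tested had no common order with CoCl2 either. Pooled ratios to control were 2.69 for H2AC13 and 2.17 for H2BC13, but 1.24 for H2AC20 and 19.2 for H2BC21. The order in the tested pairs is therefore not read as general.

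Promoters of 61 of the 66 clustered genes and 10 of the 11 variants were matched by symbol in RefSeq (GRCh38.p14, 250 bases before to 50 after the start). The core promoter element TATAAA was found on either strand in 67.2% of the clustered promoters, 40% of the variant promoters and 12% of all 27305 promoters. The CCAAT box was found in 85.2%, 80% and 35.7%, and the octamer ATTTGCAT in 42.6%, 10% and 1.8%. By family, 14 of 17 H2B promoters and 11 of 15 H2A promoters held the octamer and none of 12 H4 or 6 H1 promoters did, while CCAAT stood in 17 of 17 H2B and 3 of 12 H4 promoters. Windows of H2A and H2B genes that sit back to back can overlap, so the same site can count for both genes. The octamer of H2AC6 was the site counted for H2BC4, and the TATAAA of H2AC8 was that of H2BC8. H3C4 and H2AC7 were matched to the same window. The family and clustered shares therefore do not describe independent promoters. The promoters of H2BC8, with all 3 motifs, of H4C9, with CCAAT alone, and of H3-3B, the only variant called higher with CoCl2, are printed as examples. Motifs of either strand are in capitals.
H2BC8: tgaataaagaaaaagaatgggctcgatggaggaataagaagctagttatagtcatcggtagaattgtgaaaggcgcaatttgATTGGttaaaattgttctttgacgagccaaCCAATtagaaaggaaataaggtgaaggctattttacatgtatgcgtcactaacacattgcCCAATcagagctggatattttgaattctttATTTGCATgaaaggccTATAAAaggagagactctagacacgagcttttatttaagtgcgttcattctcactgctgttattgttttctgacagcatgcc
H4C9: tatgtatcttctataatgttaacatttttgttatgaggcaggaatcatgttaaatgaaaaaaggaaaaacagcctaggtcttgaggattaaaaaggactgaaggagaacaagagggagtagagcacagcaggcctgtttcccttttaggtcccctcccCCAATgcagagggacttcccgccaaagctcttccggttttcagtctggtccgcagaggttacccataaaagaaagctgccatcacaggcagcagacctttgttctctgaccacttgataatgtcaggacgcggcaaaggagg
H3-3B: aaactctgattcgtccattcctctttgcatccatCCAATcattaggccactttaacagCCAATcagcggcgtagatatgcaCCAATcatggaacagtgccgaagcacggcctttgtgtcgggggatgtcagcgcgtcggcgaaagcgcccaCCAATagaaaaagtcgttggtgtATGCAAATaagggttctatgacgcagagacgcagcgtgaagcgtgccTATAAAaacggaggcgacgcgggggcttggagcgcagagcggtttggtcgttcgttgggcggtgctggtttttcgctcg
They are chr6:26216639-26216938 (minus strand), chr6:27139032-27139331 (plus strand) and chr17:75779730-75780029 (minus strand). H2BC8 and H4C9 both rose with CoCl2 and fell with OD although their motifs differ, and a match of letters is no evidence that a factor binds there.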

How the data were processed

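The 9 uCaco-2 libraries (TruSeq Stranded mRNA, single-end 75-base reads) were analysed. Reads were checked with FastQC 0.11.9, trimmed with cutadapt 2.10 and mapped to GRCh38.p13 with STAR 2.7.5b, and the authors deposited raw counts per gene symbol on GENCODE release 34. The counting tool, its strand setting and the treatment of multi-mapping reads are not given in the sources used here. Genes that overlap or have near-identical copies are therefore uncertain.

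TMM factors were computed from these counts in R 4.3.3 with edgeR 4.0.16, and 15944 genes passed its filter at a minimum count of 10. All 9 libraries entered 1 quasi-likelihood model (robust, condition as the only factor), from which 3 contrasts were tested with Benjamini-Hochberg adjustment. Calls needed a log2 fold change beyond 1 or -1 with an adjusted p under 0.05. DESeq2 1.42.0 was an alternative. Counts were also simulated for CoCl2 against control with 200 of 15455 genes changed. At log2 changes of 1.5, 2 and 3, 63 of 68, 64 of 66 and 65 of 66 genes were recovered, with 2 false calls and 0 wrong signs. In the data the shift was far broader, with 3167 higher and 3724 lower calls among 15944 genes. The simulation therefore cannot give the error rate of the reported calls. Its recovery is not split by count level, so it does not speak for genes with few counts. Bounds use a floor of 3 counts over the condition and cover counting error only. Replicates of each condition differed beyond sampling noise (chi-square per degree of freedom 1.74 to 3.05), so each counted once.

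Coordinates, exon lengths, stem-loops and the share of 75-base windows found nowhere else in the genome came from GENCODE release 44 on GRCh38, and promoters from RefSeq. The members and gene lists were chosen with earlier results of these data known. Named were all variants, SLBP and NPAT, the 8 clustered genes highest in mean CPM, the 5 largest called rises and falls of each comparison, and the 2 largest called rises and falls of each list. Other genes were named after their values were seen. Some genes that this rule names are not reported here. The alternatives are given in the closing section.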

Additional observations from a re-analysis of the deposited data

How the results depend on the processing

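Counts limit the precision for the clustered genes, of which 39 of 66 had at most 3 counts in each control library. All comparisons were also computed with DESeq2, other scalings and filters, the replicate number as a block, thinned counts and each library left out. Members that pass the filter on the control libraries alone, and clustered genes with those listed under older symbols, were chosen after seeing the data. The direction of the clustered medians was the same in every alternative run, and the cause of the shifts below was not tested beyond fewer or more genes in the alternatives that change the members. Same-numbered libraries deviated together by correlations of -0.00492 to 0.0376 only, so the number does not pair samples. With the replicate block the counts of calls were as in the fit without it (24 clustered genes higher with CoCl2, 17 lower with OD and 24 higher against OD), and the medians were 2.64, -2.0 and 4.78.

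For clustered genes called higher with CoCl2 (24), at least 10 counts in every library left 5 of 5 tested, a mean of at least 50 counts 9 of 9 and the control-library filter 13 of 13, and the same numbers held against OD, where no count filter gave 45. Placing every H1 gene with the clustered genes added 2 lower calls with CoCl2 and 1 against OD. The median with CoCl2 (2.64) was 2.13 by library size alone and 2.06 with no count filter. Clustered genes called lower with OD (17) were 11 with DESeq2 or edgeR on 6 libraries, 11 on the control-library filter, 4 with at least 10 counts in every library and 7 with a mean of at least 50 counts, and the median (-2.0) was -1.52 with at least 10 counts in every library. The clustered median against OD (4.77) was 4.96 with DESeq2 on 9 libraries, 4.99 with DESeq2 and 4.92 with edgeR on 6, 4.65 with upper-quartile factors, 4.25 by library size alone, 3.70 with no count filter, 3.58 with at least 10 counts in every library, 4.59 with thinned counts, 4.93 with a mean of at least 50 counts, 4.62 with all H1 genes, 4.34 without overlapping exons and 4.61 on the control-library filter and with the genes under older symbols.

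For variants with CoCl2, called higher went from 1 to 0 by library size alone and without the members whose exons overlap another gene, and to 3 at the adjusted p alone. Called lower went from 2 to 5 at the adjusted p alone, to 1 without overlapping exons and to 0 without the H1 genes. The median (-0.13) was -0.08 with DESeq2 on 9 libraries and with RLE factors, -0.23 with upper-quartile factors, -0.63 by library size alone, -0.19 with no count filter, -0.39 without overlapping exons, and turned to 0.08 without the H1 genes. With OD, lower calls went from 2 to 8 at the adjusted p alone and to 1 without the H1 genes, and the median (-0.64) to -0.43 without the H1 genes and -1.05 without overlapping exons. Against OD, higher calls went from 2 to 1 by library size alone and without overlapping exons and to 5 at the adjusted p alone, and lower calls from 1 to 2 by library size alone, 3 at the adjusted p alone and 0 without the H1 genes. That median (0.51) was 0.56 with DESeq2 on 9 libraries and with RLE factors, 0.38 with upper-quartile factors, 0.45 with no count filter, 0.46 with at least 10 counts in every library, 0.78 without the H1 genes and 0.31 without overlapping exons, and turned to -0.03 by library size alone.

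With each library left out in turn, clustered genes called higher numbered 21 to 25 with CoCl2 and 21 to 25 against OD, and those called lower with OD 15 to 18. Without CoCl2 replicate 1 or CoCl2 replicate 3, H2BC6, H4C5 and H3C12 were not tested. The clustered medians ranged from 2.61 to 2.77, -2.03 to -1.73 and 4.65 to 4.97, and the variant medians from -0.15 to -0.10, -0.70 to -0.59 and 0.46 to 0.55. H2BC17 passed the threshold with OD without OD replicate 3 (-3.82).

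Among single genes, directions turned for small values. By library size alone SLBP had -0.32 with CoCl2 and -0.02 against OD, H2AZ1 -0.43 and -0.03, and MACROH2A1 -0.52 against OD. With upper-quartile factors H2AZ1 had -0.02 with CoCl2 and MACROH2A1 -0.10 against OD, and the latter had -0.04 with no count filter and -0.02 with at least 10 counts in every library. With 1 library left out, H3-3A with OD ranged from -0.03 (without OD replicate 2) to 0.05, and H3C12 with OD from -3.15 (without OD replicate 3) to 1.76 (without control replicate 3).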
